A study of Mus musculus with 4 samples.

Results

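A set of 9 synaptic adhesion genes was followed across the cell classes of the mouse retina: the neurexins Nrxn2 and Nrxn3, the neuroligins Nlgn1, Nlgn2 and Nlgn3, the contactin-associated proteins Cntnap2, Cntnap4 and Cntnap5a, and the neurexophilin Nxph1. They were taken by symbol from the gene rows of the count files, where each symbol had 1 row, so that 9 of 31053 genes are described. The assay was 10x single-nucleus RNA sequencing, which sorts nuclei into droplets, tags their RNA with a barcode per droplet and counts molecules by a random tag, the UMI (unique molecular identifier). Each of the 4 libraries came from 1 left eye of a numbered donor, 2 aged 5 months and 2 aged 2.5 months. The 2.5-month animals are labelled wild type, while no genotype is labelled for the 5-month animals, and the labels name no treatment for either age. Nothing in the labels links the donor numbers across the ages.

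Neurexins are presynaptic membrane proteins that bind postsynaptic neuroligins across the synaptic cleft, and both families help to specify synapses. Neuroligin 1 is known mainly from excitatory synapses, neuroligin 2 from inhibitory synapses and neuroligin 3 from both. Caspr proteins, encoded by the Cntnap genes, are membrane relatives of the neurexins: the product of Cntnap2 gathers potassium channels beside the nodes of myelinated axons, and neurexophilins are secreted ligands that bind the extracellular part of alpha-neurexins. In the retina, photoreceptors signal to bipolar and horizontal cells in the outer synaptic layer, and bipolar cells signal to amacrine and ganglion cells in the inner one.

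On GRCm38, the assembly that mm10 names, 7 of the 9 genes are long. Cntnap2 spans 2244.86 kb (chr6:45059357-47304213, plus strand), Nrxn3 1612.06 kb (chr12:88722876-90334935, plus), Nlgn1 906.246 kb (chr3:25426215-26332460, minus), Cntnap5a 902.568 kb (chr1:115684756-116587323, plus), Cntnap4 312.675 kb (chr8:112570043-112882717, plus), Nxph1 300.602 kb (chr6:8948431-9249032, plus) and Nrxn2 125.439 kb (chr19:6418731-6544169, plus). Nlgn3 spans 26.796 kb (chrX:101299168-101325963, plus) and Nlgn2 14.663 kb (chr11:69823122-69837784, minus), near the median of 17.433 kb over protein-coding genes. A UMI of any of these genes counts the gene as a whole, so that alpha-neurexins, beta-neurexins and splice forms are not separated. Nrxn2, Nlgn1 and Cntnap4 overlap other annotated genes (Gm14964 and Slc22a12, A830092H15Rik, and Gm45904), and how reads of such pairs were assigned is not given in the sources used here.

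The RefSeq promoter table (GRCm38.p6), which runs from 250 bases before to 50 after a start, held 9 windows for 5 of the 9 genes. Shown here are the window of Nxph1, the gene whose UMIs came from the fewest nuclei below, the most downstream of 3 Nrxn3 windows, since it lies inside the gene and the counts pool all starts, and the window of Nlgn2, the gene with the flattest profile. Capitals mark CAGCTG, and the letters TAATTA and TAATCC were also searched, all on both strands and without overlap between motifs.
Nxph1 chr6:8949769-8950068 (plus): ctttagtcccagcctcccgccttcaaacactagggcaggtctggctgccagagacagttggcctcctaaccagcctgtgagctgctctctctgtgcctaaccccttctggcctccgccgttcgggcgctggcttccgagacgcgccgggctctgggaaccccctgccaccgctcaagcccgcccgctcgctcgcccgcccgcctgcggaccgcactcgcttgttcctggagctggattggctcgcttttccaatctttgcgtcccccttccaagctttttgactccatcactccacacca
Nrxn3 chr12:89812233-89812532 (plus): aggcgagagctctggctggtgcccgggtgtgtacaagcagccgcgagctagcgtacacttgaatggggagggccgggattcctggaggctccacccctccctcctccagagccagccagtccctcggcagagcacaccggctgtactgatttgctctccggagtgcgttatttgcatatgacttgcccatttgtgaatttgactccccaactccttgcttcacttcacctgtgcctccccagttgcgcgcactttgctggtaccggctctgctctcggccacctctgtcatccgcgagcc
Nlgn2 chr11:69837735-69838034 (minus): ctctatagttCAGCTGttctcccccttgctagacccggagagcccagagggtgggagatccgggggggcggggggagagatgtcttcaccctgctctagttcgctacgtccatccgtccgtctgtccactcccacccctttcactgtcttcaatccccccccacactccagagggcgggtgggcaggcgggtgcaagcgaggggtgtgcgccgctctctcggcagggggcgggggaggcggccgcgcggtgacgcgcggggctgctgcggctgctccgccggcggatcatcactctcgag
CAGCTG stood in the Nlgn2 window only, and neither of the other motifs stood in any of the 3. Over all 32851 windows of the table CAGCTG stood in 16.3%, TAATCC in 7.06% and TAATTA in 5.29%, so that single matches are common and these are descriptions of letters only.

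The 5-month libraries held 7537 and 9963 barcodes and the 2.5-month libraries 7404 and 7422, with 19608067 to 36320257 UMIs each, and pairs of libraries shared 0.0808% to 0.337% of barcodes. After filters 30361 nuclei remained, of which 27781 fell into 10 classes named from markers: rods, cones, bipolar, amacrine, ganglion and horizontal cells, Müller glia, pigment epithelium, fibroblasts and melanocytes. Summed UMIs per class and library ranged from 138040 in melanocytes to 8681178 in amacrine cells. The tissue labelled retina thus also held cells from around it, including a striated muscle cluster of 160 nuclei, of which 124 came from the first 2.5-month library. In that library the 6 muscle markers summed in rods to 284 CPM (counts scaled to 1000000 UMIs per class and library), against 62.1 to 69.7 CPM in rods of the other 3 libraries. The source of this difference was not tested. Age coincided fully with the Cell Ranger version named in the file headers (4.0.0 at 5 months, 7.1.0 at 2.5 months), and the effects of age and version on any difference between ages cannot be told apart.

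The 9 genes were spread over different classes, and the inner retinal neurons held most of them. Bipolar cells had the highest levels of Nrxn3, Cntnap5a and Nxph1, amacrine cells of Nrxn2, ganglion cells of Nlgn3 and, with amacrine cells, of Cntnap2. Outside the neurons, Nlgn1 was highest in Müller glia and Cntnap4 in pigment epithelium, and Nlgn2 was highest in no single class. Rods and cones had low levels of nearly all. Each class was compared with the mean of the other 9 (edgeR quasi-likelihood test with library as a block, Benjamini-Hochberg adjustment over 14986 genes, call at adjusted p under 0.05), and fold changes below come from that fit.

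In amacrine cells 9 of 9 genes were called higher, where 32.8% of all genes tested were higher and 22.6% lower. In bipolar cells 8 were higher and 0 lower, against 26.4% and 19.5% of all genes, and in ganglion cells 8 and 0, against 35.2% and 26.2%. Müller glia had 5 higher and 4 lower (29.5% and 22.8% of all genes), and horizontal cells 3 higher and 4 lower (17.6% and 18.1%). Cones had 0 higher and 8 lower (32.4% and 26.2% of all genes), and rods 0 higher and 9 lower (31.1% and 30.4%). Outside the neural retina, fibroblasts had 2 higher and 5 lower (28.9% and 23% of all genes), pigment epithelium 1 and 4 (17.1% and 14.5%) and melanocytes 0 and 6 (16.4% and 16.4%). Cntnap4 in bipolar cells was at the threshold (log2 fold change 0.72 ± 0.31, edgeR adjusted p = 0.0497). With plain library sizes in place of TMM the median log2 fold change over all genes moved to -0.55 in horizontal cells and 0.25 in fibroblasts, and the genes called higher and lower were 1572 and 6186 in horizontal cells, against 2635 and 2718 with TMM.

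**Figure D1:**
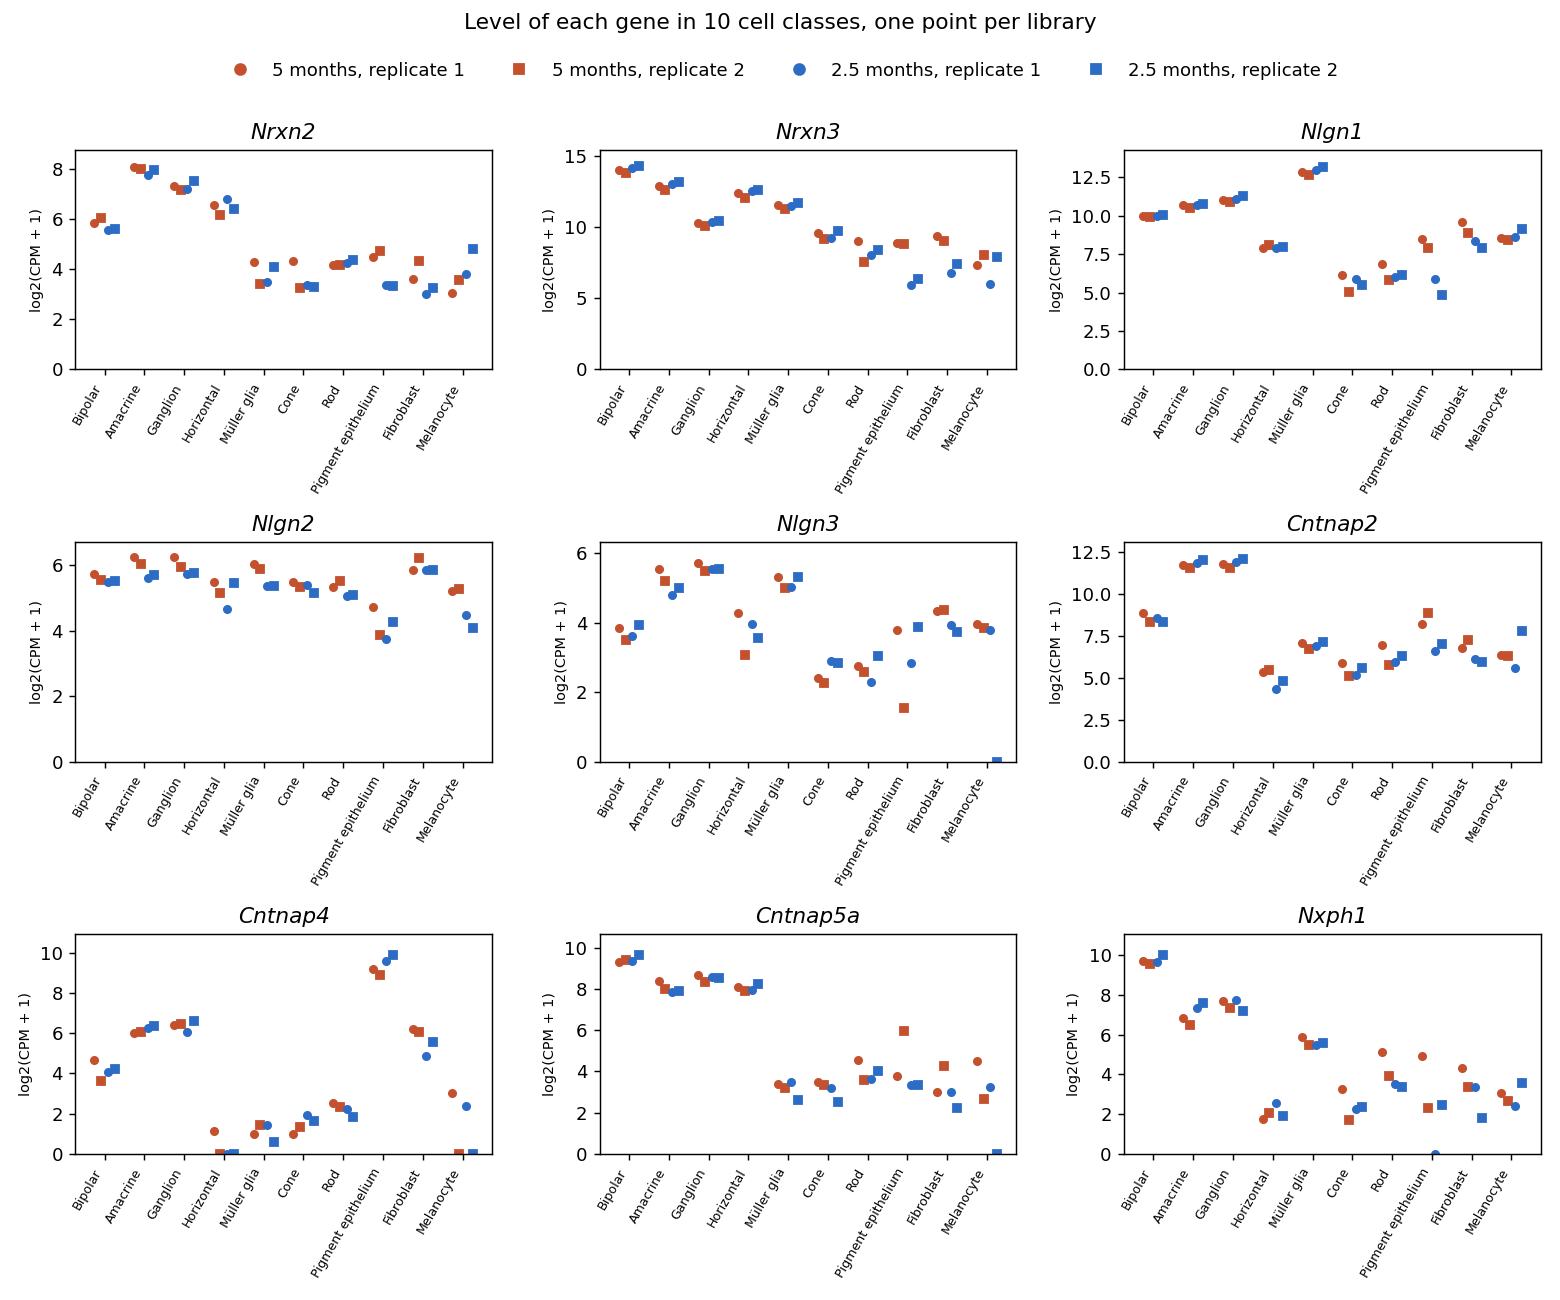
Level of each gene, as log2(CPM + 1), in the 10 classes, with 1 point per library (red, 5 months; blue, 2.5 months; circles, replicate 1; squares, replicate 2). The lowest of the 4 libraries is at 14847 CPM for Nrxn3 in bipolar cells, 6326 CPM for Nlgn1 in Müller glia and 474 CPM for Cntnap4 in pigment epithelium, while Nlgn2 is nearly level across classes.

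**Figure D2:**
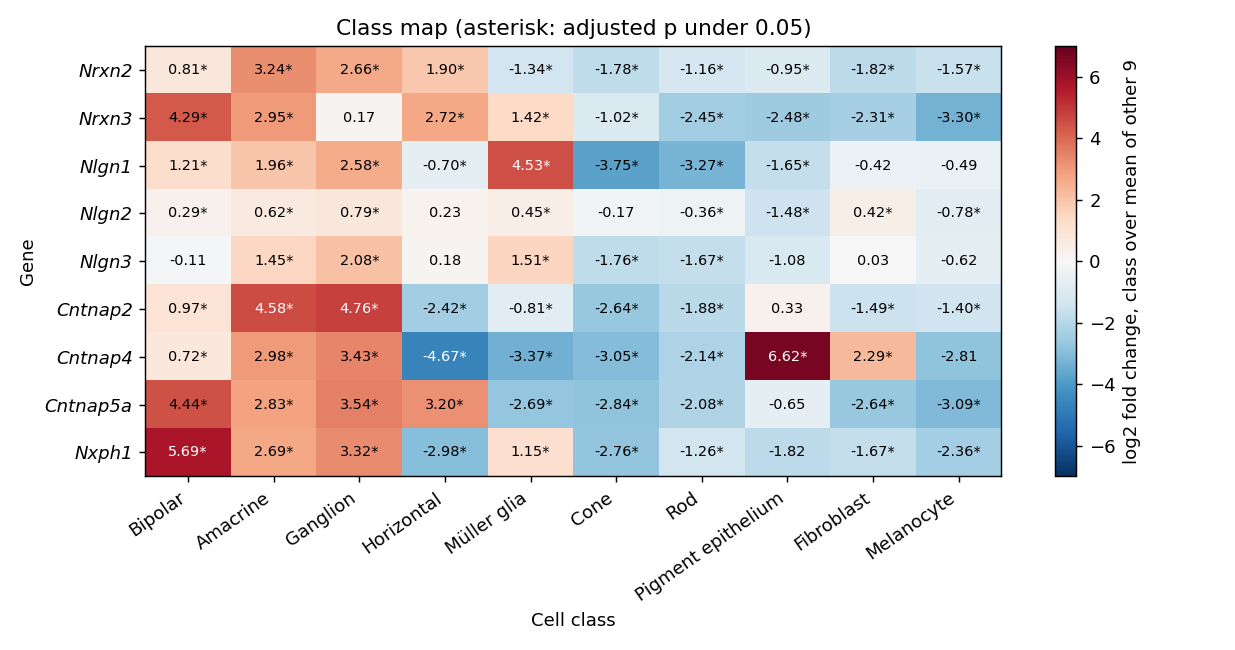
Log2 fold change of each gene (rows) in each class over the mean of the other 9 classes (columns), from the edgeR fit; red is higher, blue is lower, and an asterisk marks an adjusted p under 0.05. Amacrine cells carry 9 positive calls, rods 9 negative ones, and the largest value is 6.62 for Cntnap4 in pigment epithelium.

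Nrxn3, one of the presynaptic neurexins, was highest in bipolar cells, where it had 17209 and 14847 CPM at 5 months and 18586 and 20251 CPM at 2.5 months, a log2 fold change of 4.29 ± 0.18 (SE) over the other classes with an edgeR adjusted p of 1.19e-25. All 4 of these values lay above those of every other class. Amacrine cells (7902 ± 1252 CPM, SD over 4 libraries) and horizontal cells (5590 ± 943 CPM) followed with overlapping ranges, then Müller glia (2953 ± 330 CPM) and ganglion cells (1270 ± 133 CPM), which did not overlap with their neighbours. Ganglion cells, which receive synapses from bipolar cells, were not called for Nrxn3 (log2 fold change 0.17, adjusted p = 0.570 by edgeR). Cones had 709 ± 137 CPM and rods 332 ± 147 CPM, with no overlap between them although both overlapped with fibroblasts. After thinning each nucleus to 500 UMIs, 99.8% of bipolar nuclei still had a Nrxn3 UMI, against 15.2% of cones, 12.97% of rods and 7.28% of fibroblasts.

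Within bipolar cells Nrxn3 was high in all 8 clusters, with means between 14280 and 23130 CPM. Rod bipolar nuclei had 14411 ± 2270 CPM, ON cone bipolar nuclei 18042 ± 2509 CPM and OFF cone bipolar nuclei 21492 ± 2256 CPM, ranges that overlap from each to the next. No bipolar cluster stood low, and even the lowest was above the highest amacrine cluster, at 11341 CPM.

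The other neurexin measured, Nrxn2, was spread differently. It had 269 and 251 CPM in amacrine cells at 5 months and 215 and 245 CPM at 2.5 months, with a log2 fold change of 3.24 ± 0.07 and an adjusted p of 2.46e-35 by edgeR. Ganglion cells (156 ± 17.1 CPM), horizontal cells (89.0 ± 17.1 CPM) and bipolar cells (53.3 ± 8.63 CPM) followed without overlap, and the other 6 classes lay between 11.3 and 17.8 CPM. GABAergic amacrine nuclei, which release the transmitter GABA, had 305 ± 19.7 CPM and did not overlap with starburst (165 ± 17.0 CPM) or glycinergic ones (161 ± 23.7 CPM). The highest cluster, led by Olfm3 and Fam196b, had 459 ± 37.1 CPM in 359 nuclei. Bipolar cells were thus the highest class for Nrxn3 and the fourth for Nrxn2.

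Per kb of gene span, which allows for length but not for the share of exonic reads, Nrxn3 had 11.0 CPM in bipolar cells and Nrxn2 0.425, and in ganglion cells the order turned, with 0.788 for Nrxn3 and 1.24 for Nrxn2. Per kb of exon the order held for bipolar cells, at 1406 for Nrxn3 and 3.86 for Nrxn2, but in ganglion cells Nrxn3 was above Nrxn2, at 101 and 11.3. The order of these genes in ganglion cells therefore depends on the length used, and how far UMI counts follow either length was not tested.

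Nlgn1, the neuroligin known from excitatory synapses, was highest in a glial class. Müller glia had 7479 and 6326 CPM at 5 months and 8249 and 9317 CPM at 2.5 months, a log2 fold change of 4.53 ± 0.14 with an edgeR adjusted p of 2.13e-31. The lowest of these 4 values was above every library of ganglion cells (2191 ± 265 CPM), amacrine cells (1639 ± 113 CPM) and bipolar cells (996 ± 37.5 CPM), and these 3 classes did not overlap with each other. After thinning, 96.2% of Müller nuclei had a Nlgn1 UMI, against 58.5% of ganglion, 45.7% of amacrine and 3.49% of rod nuclei. In Müller glia the 12 bipolar, 10 amacrine and 9 ganglion markers summed to 578 to 721, 1063 to 1230 and 129 to 172 CPM, against 10628 to 12929, 2881 to 3488 and 2407 to 2604 CPM in bipolar, amacrine and ganglion cells themselves. Whether RNA of neurons adds to the Nlgn1 level of Müller glia was not tested. Cones (51.0 ± 16.1 CPM) and rods (76.3 ± 27.9 CPM) were lowest and overlapped.

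Nlgn1 varied widely within neuron classes. Among 15 amacrine clusters it ranged from 74.4 to 4682 CPM, highest in a glycinergic cluster led by Dnah11 and Lgr5 (4682 ± 291 CPM, 415 nuclei). OFF cone bipolar nuclei had 2410 ± 198 CPM, ON cone bipolar nuclei 322 ± 34.9 CPM and rod bipolar nuclei 111 ± 122 CPM. The rod bipolar mean rests on the first 5-month library, at 293 CPM, against 31.9 to 62.4 CPM in the other 3. The OFF and ON groups did not overlap, and the OFF nuclei lay above glycinergic amacrine nuclei (1887 ± 170 CPM), which the mean of the whole bipolar class does not show. Outside these groups, the bipolar cluster led by Grik1 and Gsg1 was given no subtype. It held 33.8% of the Nlgn1 UMIs of the class with 13.1% of the class nuclei.

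Nlgn2, the neuroligin of inhibitory synapses, showed the flattest profile. Its class means ran from 17.3 CPM in pigment epithelium to 61.3 CPM in fibroblasts, a ratio of 3.54, whereas the ratio of highest to lowest class mean was 154 for Nlgn1. Fibroblasts, ganglion cells (60.3 ± 10.3 CPM), amacrine cells (59.8 ± 12.7 CPM), Müller glia and bipolar cells overlapped in turn, so no single class can be named as highest. In the fit ganglion cells had the largest value, a log2 fold change of 0.79 ± 0.08 (edgeR adjusted p = 1.41e-11). The Slc17a8 amacrine cluster, with 142 ± 13.9 CPM, stood above the other amacrine clusters, whose means ended at 73.4 CPM.

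Nlgn3, the neuroligin found at both kinds of synapse, was highest in ganglion cells. Ganglion cells had 52.0 and 43.6 CPM at 5 months and 45.8 and 45.5 CPM at 2.5 months (log2 fold change 2.08 ± 0.10, edgeR adjusted p = 8.91e-23). Müller glia (34.96 ± 4.31 CPM) and amacrine cells (34.5 ± 7.94 CPM) overlapped and were called higher too. Bipolar cells, at 12.3 ± 1.82 CPM, were not called (log2 fold change -0.11, adjusted p = 0.657 by edgeR). In pigment epithelium, melanocytes and horizontal cells Nlgn2 and Nlgn3 had as few as 3 and 0 UMIs in a library, and these classes were not tested against each other.

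Measured per kb of gene span, the neuroligins ranked differently between classes. Müller glia had 8.65 CPM per kb for Nlgn1, 3.46 for Nlgn2 and 1.30 for Nlgn3, while ganglion cells had 2.42, 4.11 and 1.74 and cones 0.0563, 2.68 and 0.194 for the same 3 genes. Nlgn2 was thus the highest neuroligin per kb of span in ganglion cells and cones, and Nlgn1 in Müller glia. Per kb of exon Nlgn1 was the highest in Müller glia and ganglion cells, at 584 and 163 CPM, and Nlgn2 in cones, at 6.79 CPM against 3.80 for Nlgn1. Without division by a length Nlgn1 was the highest in each of these classes. It had 7843 CPM in Müller glia, 2191 in ganglion cells and 51.0 in cones, against 50.8, 60.3 and 39.3 for Nlgn2. How far UMI counts follow either length was not tested, so these orders depend on the measure used.

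Cntnap2, which encodes Caspr2, was highest in ganglion cells, whose axons form the optic nerve, and in amacrine cells. Ganglion cells had 3545 and 2970 CPM at 5 months and 3895 and 4368 CPM at 2.5 months, and amacrine cells 3483 and 3020 CPM at 5 months and 3766 and 4219 CPM at 2.5 months. The log2 fold changes were 4.76 ± 0.14 and 4.58 ± 0.14 (edgeR adjusted p = 2.97e-32 and 2.65e-31). The ranges of these classes overlapped, and bipolar cells, next in order, had 377 ± 69.2 CPM. Horizontal cells had the lowest mean, 32.7 ± 11.5 CPM.

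Among amacrine clusters Cntnap2 ran from 822 to 6814 CPM. The highest was a cluster led by Spink13 and Dab1 (6814 ± 980 CPM, 446 nuclei), which met the markers of no amacrine subtype. Dab1 is a marker of the AII amacrine cells of the rod pathway, and no name was given to the cluster from it. Glycinergic nuclei (2637 ± 162 CPM) did not overlap with GABAergic nuclei (3702 ± 651 CPM), while starburst nuclei (3465 ± 678 CPM) overlapped with GABAergic ones. The glycinergic group leaves out the Spink13 cluster, which raised 2 glycinergic and 0 GABAergic markers where 3 were needed. Whether the 2 groups would still be apart with that cluster counted as glycinergic was not tested. In bipolar cells 1 cluster, led by Neto1, held 44.1% of the Cntnap2 UMIs of the class with 7.72% of its nuclei.

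Cntnap4 was highest in the pigment epithelium, the layer that supports photoreceptors. Pigment epithelium had 591 and 474 CPM at 5 months and 790 and 970 CPM at 2.5 months, a log2 fold change of 6.62 ± 0.17 with an edgeR adjusted p of 3.23e-34. Every pigment epithelium library lay above every library of ganglion cells (84.0 ± 13.4 CPM), amacrine cells (71.8 ± 7.50 CPM) and fibroblasts (53.7 ± 20.7 CPM). Of pigment epithelium nuclei 30.04% had a Cntnap4 UMI after thinning and 85.7% before, against 0.131% and 0.471% of rods. The class is small: the 5-month libraries held 57 and 113 of its nuclei and the 2.5-month libraries 66 and 37.

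Smaller groups within 3 other classes also carried Cntnap4. An amacrine cluster led by Vwa5b1 and Cntn6 had 451 ± 85.9 CPM in 199 nuclei, where the median amacrine cluster had 37.3 CPM. Among fibroblasts the cluster led by Ptn and Dmgdh had 234 ± 50.5 CPM and held 78.9% of the class UMIs with 19.4% of its nuclei. The ganglion cluster led by Hydin and Calb2 had 213 ± 36.9 CPM, against 29.2 and 76.6 CPM in the other two. Horizontal cells had 1 Cntnap4 UMI in all 4 libraries together, and Müller glia 12.

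Cntnap5a marked OFF bipolar nuclei, a bipolar cluster without a subtype and several inner neurons. Bipolar cells had 632 and 674 CPM at 5 months and 664 and 820 CPM at 2.5 months, a log2 fold change of 4.44 ± 0.12 (edgeR adjusted p = 4.11e-33). Ganglion cells (373 ± 33.1 CPM) were lower without overlap, and horizontal cells (268 ± 31.5 CPM) and amacrine cells (266 ± 50.3 CPM) overlapped with each other. In the remaining 6 classes the mean was 8.06 to 23.2 CPM. Cntnap5a has the close relatives Cntnap5b and Cntnap5c, whose share of reads in common was not tested.

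OFF cone bipolar nuclei, which respond when light dims, had 1628 ± 255 CPM of Cntnap5a, ON cone bipolar nuclei 118 ± 41.8 CPM and rod bipolar nuclei 31.1 ± 39.5 CPM. As for Nlgn1, the rod bipolar mean rests on the first 5-month library, at 89.4 CPM, against 6.21 to 21.4 CPM in the other 3. The highest bipolar cluster, led by Grik1 and Gsg1 and given no subtype, had 2452 ± 268 CPM, and 95.6% of its nuclei had a UMI before thinning. It held 43.1% of the Cntnap5a UMIs of the bipolar class with 13.1% of the class nuclei. With the 2 OFF clusters, at 1859 ± 411 and 1467 ± 142 CPM, it stood above all other bipolar clusters. In the ganglion class the Hydin and Calb2 cluster had 1048 ± 124 CPM, against 246 and 313 CPM in the other two.

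Nxph1, the secreted neurexin ligand, came mostly from a few clusters. Bipolar cells had 835 and 759 CPM at 5 months and 797 and 1039 CPM at 2.5 months (log2 fold change 5.69 ± 0.13, edgeR adjusted p = 4.94e-36). Of the Nxph1 UMIs of bipolar cells 78.7% came from the Neto1 cluster, an OFF type with 217 nuclei, 7.72% of the class. That cluster had 7791 and 7443 CPM at 5 months and 7289 and 8895 CPM at 2.5 months. Of its nuclei 94.0% had a Nxph1 UMI after thinning, against 14.8% in the other OFF cluster.

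In amacrine cells 87.2% of Nxph1 UMIs came from 120 nuclei, 2.16% of the class, in the cluster led by Slc17a8, the gene of the vesicular glutamate transporter VGLUT3. It had 5715 and 3601 CPM at 5 months and 7063 and 6625 CPM at 2.5 months, while the median amacrine cluster had 8.19 CPM. Nxph1 was among the leading genes of both clusters although it was kept out of the genes used for clustering. Ganglion cells had 181 ± 33.8 CPM, with cluster means of 205, 145 and 21.0 CPM, and 7.11% of their nuclei had a UMI after thinning and 35.1% before. Müller glia had 48.4 ± 6.68 CPM, and the other 6 classes had means of 16.9 CPM in rods down to 3.24 CPM in horizontal cells.

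**Figure D3:**
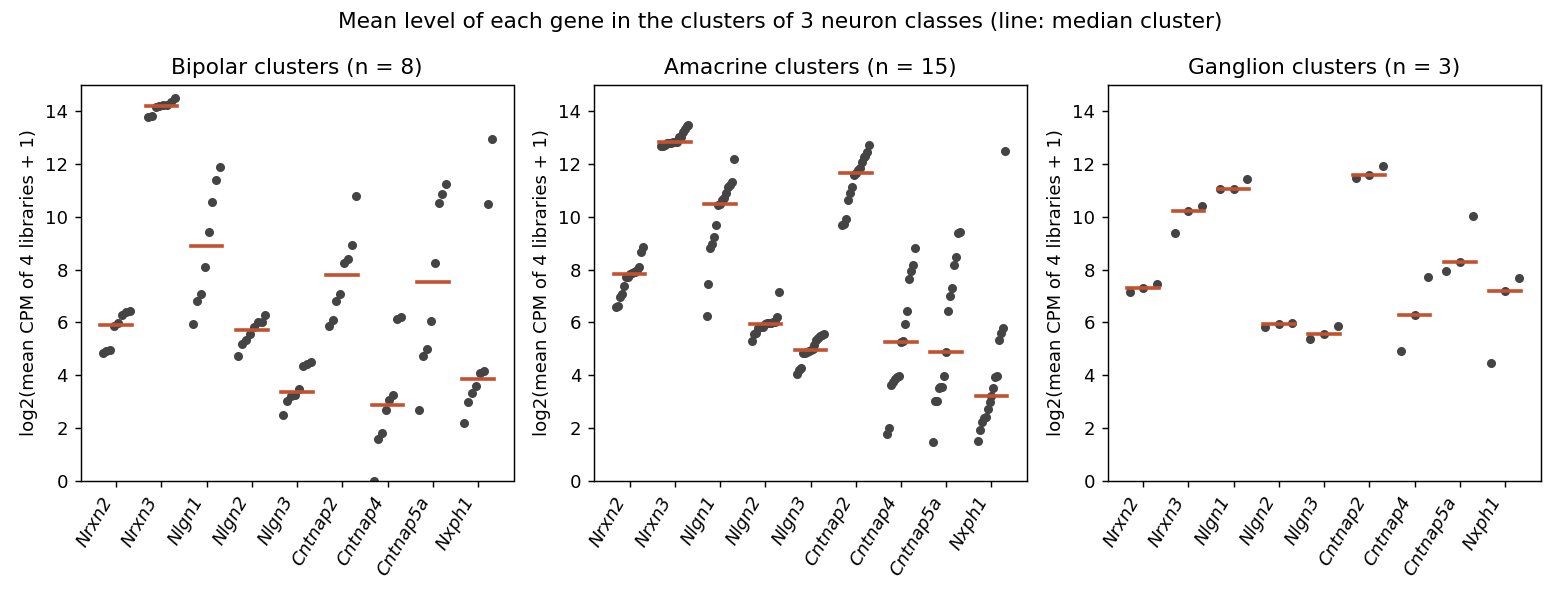
Mean level over 4 libraries, as log2(CPM + 1), of each gene in the clusters of bipolar, amacrine and ganglion cells; each point is 1 cluster, clusters are sorted within a gene, and the red line is the median cluster. Nrxn3 runs from 14280 to 23130 CPM over the bipolar clusters, whereas Nxph1 has a single amacrine cluster at 5751 CPM over a median of 8.19 CPM.

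Across the 40 class by library sums the genes did not form 1 block. The pairs with the highest Pearson correlations of log2(CPM + 1) were Nrxn2 with Cntnap5a (r = 0.838) and Nrxn3 with Cntnap5a (r = 0.745), and the lowest was Nrxn3 with Cntnap4 (r = -0.159). Nrxn3 and Nlgn1, a neurexin and its ligand, had r = 0.543. These are descriptions over sums that share libraries and depth. The non-member genes with the most similar profiles, of 13001 compared, included Pak3 for Nlgn1 (r = 0.966), Zmat4 for Cntnap2 (r = 0.954) and Mir670hg for Cntnap5a (r = 0.949). They also included Grid1 for Nxph1 (r = 0.924), Cadps for Nrxn3 (r = 0.918), Lrrc7 for Cntnap4 (r = 0.912), Usp22 for Nlgn2 (r = 0.842) and Efnb2 for Nlgn3 (r = 0.831). Next in likeness were Rph3a for Nrxn2, Rnf165 for Nrxn3, Thra for Nlgn2, Creg2 for Nlgn3, Nrg3 for Cntnap2, Thpo for Cntnap4, Abcc8 for Cntnap5a and Zfp804b for Nxph1, with r between 0.800 and 0.948.

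Other genes of the same contacts were listed in 2 groups. Of 19 tested extracellular partners and regulators, among them the leucine-rich repeat neurexin ligands (Lrrtm), cerebellins, calsyntenins and latrophilins, 17 were called higher and 1 lower in amacrine cells, 13 and 2 in bipolar cells and 12 and 4 in ganglion cells, against 5 and 6 in Müller glia, 4 and 9 in horizontal cells, 3 and 11 in rods and 3 and 8 in cones. Of all genes 32.8% were higher and 22.6% lower in amacrine cells, 26.4% and 19.5% in bipolar cells and 35.2% and 26.2% in ganglion cells. The shares were 29.5% and 22.8% in Müller glia, 17.6% and 18.1% in horizontal cells, 31.1% and 30.4% in rods and 32.4% and 26.2% in cones. The median log2 fold change was 2.29 in amacrine cells and -0.69 in rods, with medians of 0.03 and -0.04 over all genes. Lrrtm4, a neurexin ligand, had 2883 CPM in bipolar cells, and Mdga2, which binds neuroligins, 6065 CPM there. Adgrl3, a latrophilin, had 1537 CPM in amacrine cells and 1263 CPM in Müller glia, and Clstn2, a calsyntenin, 663 CPM in ganglion cells.

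The other group of 25 genes held synaptic scaffolds, partners of Caspr proteins and the Caspr genes Cntnap1, Cntnap3, Cntnap5b and Cntnap5c. Of these 20 were higher and 2 lower in amacrine cells, 20 and 3 in ganglion cells and 15 and 2 in bipolar cells, against 7 and 6 in horizontal cells, 8 and 12 in Müller glia, 2 and 15 in rods and 4 and 13 in cones. The shares of all genes are those given for the first list, with 32.8% higher and 22.6% lower in amacrine cells. They were 35.2% and 26.2% in ganglion cells, 26.4% and 19.5% in bipolar cells and 31.1% and 30.4% in rods. The median log2 fold change was 0.95 in amacrine cells, 1.75 in ganglion cells and -1.06 in rods, with medians of 0.03, 0.05 and -0.04 over all genes. The 4 Caspr genes were called higher in both amacrine and ganglion cells, with Cntnap3 at 5.33 ± 0.23 in ganglion cells (edgeR adjusted p = 4.77e-24). Dlg4, the scaffold PSD-95, was an exception in photoreceptors, with 501 CPM in rods and 476 CPM in cones against 31.8 to 98.1 CPM elsewhere. Cntn2, the contactin partner of Caspr2, had 36.0 CPM in ganglion cells and at most 6.91 CPM in any other class, although amacrine cells had as much Cntnap2. Gphn, the gephyrin scaffold of inhibitory synapses, had class means between 863 and 1694 CPM. Between the ages the calls in both lists fell in fibroblasts (Lrrtm3) and pigment epithelium (Mdga2, Lrrtm4, Adgrl3, Cntn1 and Iqsec3), all higher at 5 months. In fibroblasts this was 1 of 11 tested in the first list and 0 of 21 in the second, where 0.139% of all genes were called higher. In pigment epithelium it was 3 of 6 and 2 of 16, where 2.98% of all genes were. These calls were not recomputed under the other treatments of doublets described next.

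Within a class, no difference between the ages was called for any of the 9 genes under all 3 treatments of doublets, droplets that hold more than 1 nucleus. In the class of its highest level no gene was called: the log2 fold changes of 5 months over 2.5 months were -0.32 ± 0.28 for Nrxn3 in bipolar cells, -0.31 ± 0.22 for Nlgn1 in Müller glia, -0.32 ± 0.24 for Cntnap2 in ganglion cells and 0.15 ± 0.17 for Nrxn2 in amacrine cells. They were -0.63 ± 0.23 for Cntnap4 in pigment epithelium, -0.23 ± 0.19 for Cntnap5a and -0.25 ± 0.20 for Nxph1 in bipolar cells, 0.09 ± 0.20 for Nlgn3 in ganglion cells and 0.20 ± 0.28 for Nlgn2 in fibroblasts. Adjusted p ranged from 0.253 to 0.971 (edgeR quasi-likelihood test with age as the only term, 2-sided, n = 2 libraries an age). Long genes as a whole were lower at 5 months in several classes, with a median log2 fold change of -0.14 in amacrine cells over 592 genes of at least 300 kb. They were higher in pigment epithelium (0.22 over 395 genes) and rods (0.15 over 528 genes). Genes under 30 kb had medians of 0.13 in amacrine cells, 0.18 in pigment epithelium and 0.06 in rods, so in pigment epithelium long and short genes were both higher. Age, the Cell Ranger version and this length trend cannot be told apart.

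Of the 72 gene and class pairs that passed the filter on low counts, 4 were called, all higher at 5 months, where 0.241% of all genes and classes tested were called. They were Nrxn3, Nlgn1 and Cntnap2 in pigment epithelium, where 2.98% of all genes were called higher and 3.15% in either direction, and Nrxn3 in fibroblasts, where 0.139% and 0.191% were. None of the 60 pairs in the other 8 classes was called, where the share of all genes called was 0.0392% in amacrine, 0.0688% in bipolar, 0.105% in cone, 0.0959% in ganglion, 0.071% in horizontal, 0.154% in melanocyte, 0.0955% in Müller and 0.0489% in rod nuclei. With no filter on low counts Nxph1 was called lower in amacrine cells (log2 fold change -0.85) and higher in rods (1.23), and with the doublet caller's own thresholds Nrxn3 was called lower in melanocytes (-1.85 ± 0.35, edgeR adjusted p = 0.00319). An unadjusted p under 0.05 (edgeR) was found for 13 of the 72. It was 4 of 4 in pigment epithelium (587 of 5135 over all genes), 4 of 8 in fibroblasts (983 of 11517) and 2 of 9 in amacrine cells (1278 of 15296). In horizontal cells it was 1 of 6 (458 of 7041), in Müller glia 1 of 8 (811 of 12570) and in rods 1 of 9 (782 of 12266). DESeq2 made 4 calls, all higher, against 224 higher and 64 lower of 104995 over all genes and classes. Values of the 5-month and 2.5-month libraries were fully apart for 8 of 9 genes in amacrine cells, 4 lower and 4 higher at 5 months, against 41.1% of all genes tested there, for 7 of 8 in fibroblasts (39.7%), 4 of 4 in pigment epithelium (41.9%) and 4 of 9 in rods (37.7%). In the other classes it was 3 of 9 in bipolar cells (38.6%), 4 of 9 in ganglion cells (37.4%), 2 of 7 in cones (36.2%), 2 of 6 in horizontal cells (40.6%), 2 of 8 in Müller glia (38.5%) and 1 of 3 in melanocytes (32.8%). The 3 pigment epithelium and 1 fibroblast calls depended on how doublets were handled and are given here with all 3 treatments.

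With the 6% of nuclei of highest doublet score removed from each library, Nrxn3 in pigment epithelium had 469 and 463 CPM at 5 months and 61.8 and 81.2 CPM at 2.5 months (log2 fold change 2.83 ± 0.27, edgeR adjusted p = 1.69e-05). With all nuclei kept it had 1363 and 884 CPM at 5 months and 801 and 881 CPM at 2.5 months (0.48 ± 0.24, adjusted p = 0.638). With the caller's own thresholds, which marked 16 and 30 pigment epithelium nuclei at 5 months, against 0 and 1 at 2.5 months, it had 228 and 133 CPM at 5 months and 801 and 772 CPM at 2.5 months, and was called lower (-2.03 ± 0.25, adjusted p = 0.0222). The 2.5-month libraries lost nearly no nuclei of the class to the caller's thresholds. The highest 6% of scores took away 14.9% and 12.4% of pigment epithelium nuclei at 5 months, against 20.5% and 17.8% at 2.5 months.

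The other calls moved likewise. Nlgn1 in pigment epithelium had a log2 fold change of 2.78 ± 0.35 (adjusted p = 0.000153), 0.99 with all nuclei kept (adjusted p = 0.169) and -0.48 with the caller's thresholds (adjusted p = 0.870). Cntnap2 there had 1.92 ± 0.30 (adjusted p = 0.00121), 0.15 (adjusted p = 0.881) and -0.93 (adjusted p = 0.231). Once the trend over gene length was removed, the first treatment gave -0.05 for Cntnap2, 1.11 for Nrxn3 and 1.5 for Nlgn1 in pigment epithelium. Nrxn3 in fibroblasts had 2.10 ± 0.31 (adjusted p = 0.0202), 0.20 (adjusted p = 0.923) and -0.98 (adjusted p = 0.341), all by edgeR, and without the first 2.5-month library it was not called either (adjusted p = 0.222). Sums of class markers were taken with the first treatment only, so whether they change with the treatment was not tested. In pigment epithelium the 9 ganglion markers summed to 342 and 268 CPM at 5 months and 64.8 and 104 CPM at 2.5 months. They were higher at 5 months without overlap, as Nrxn3, Nlgn1 and Cntnap2 were there under the first treatment. The 10 amacrine markers summed to 819 and 694 CPM at 5 months and 747 and 722 CPM at 2.5 months, and the 10 rod markers to 3450 and 2401 CPM at 5 months and 2878 and 2093 CPM at 2.5 months. The 12 bipolar markers summed to 1858 and 1529 CPM at 5 months and 1992 and 2327 CPM at 2.5 months, and the 5 lens markers to 0 and 7.71 CPM at 5 months and 222 and 108 CPM at 2.5 months. The 10 Müller markers summed there to 2322 and 2638 CPM at 5 months and 2026 and 2395 CPM at 2.5 months. They overlapped between the ages, as did the cone, horizontal and muscle markers in pigment epithelium. In fibroblasts the 10 Müller markers summed to 2871 and 3753 CPM at 5 months and 2370 and 1440 CPM at 2.5 months, and the 10 amacrine markers to 926 and 804 CPM at 5 months and 695 and 778 CPM at 2.5 months. Both were higher at 5 months without overlap, as Nrxn3 was there under the first treatment. So were the 6 horizontal markers, at 107 and 67.6 CPM at 5 months and 64.2 and 63.0 CPM at 2.5 months. The 12 bipolar markers in fibroblasts summed to 1169 and 794 CPM at 5 months and 1002 and 830 CPM at 2.5 months. These overlapped between the ages, as did the ganglion, rod, cone and muscle markers in fibroblasts, while the 5 lens markers were lower at 5 months. The part of these other classes in the result was not tested.

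**Figure D4:**
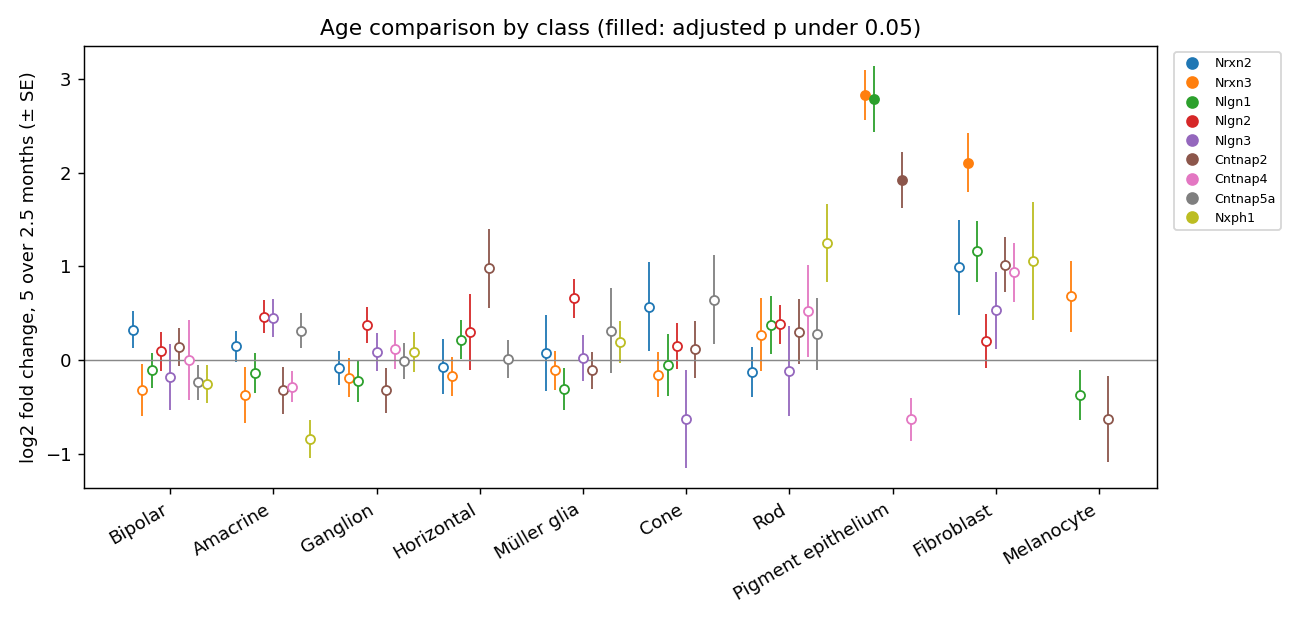
Log2 fold change of 5 over 2.5 months (± SE) of each gene in each class where it passed the filter on low counts, from the edgeR fit with the 6% of highest doublet scores removed; filled points have an adjusted p under 0.05. The filled points are Nrxn3, Nlgn1 and Cntnap2 in pigment epithelium and Nrxn3 in fibroblasts.

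**Figure D5:**
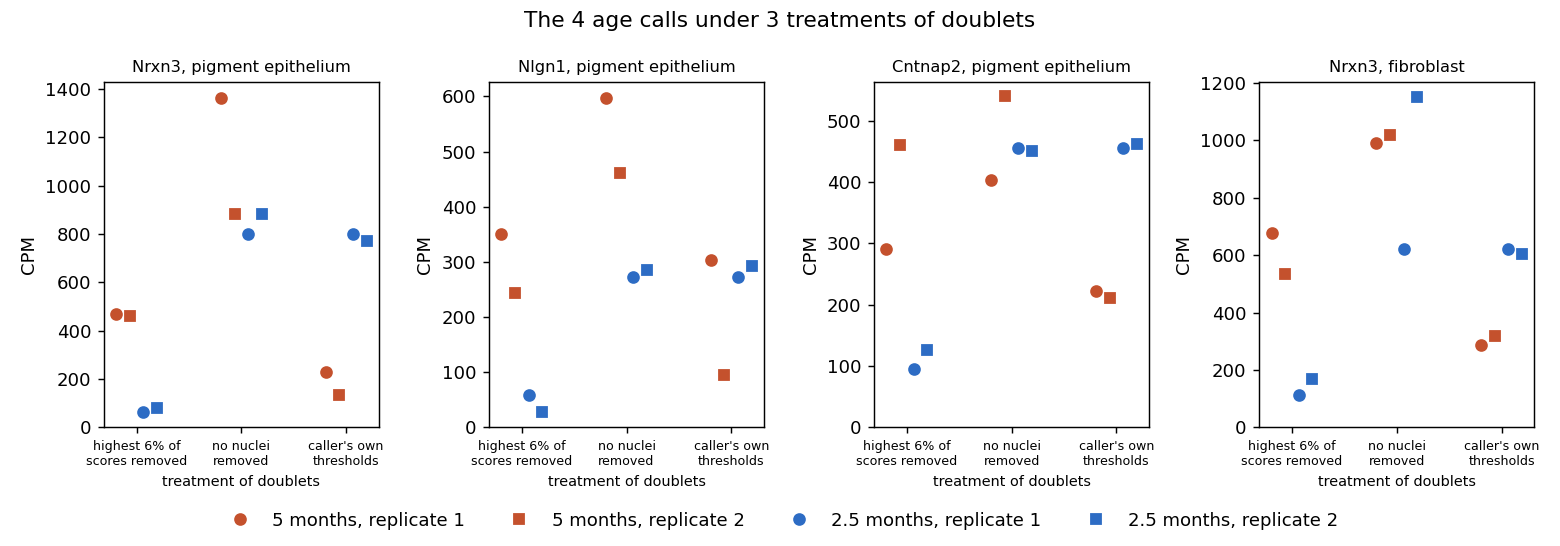
CPM of the 4 called gene and class pairs in each library (red, 5 months; blue, 2.5 months) with the 6% of highest doublet scores removed, with no nuclei removed and with the caller's own thresholds. For Nrxn3 in pigment epithelium the 5-month libraries lie above the 2.5-month ones in the first treatment (469 and 463 against 61.8 and 81.2 CPM) and below them in the last (228 and 133 against 801 and 772 CPM).

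The age difference of 1 gene differed between classes. For Nxph1 the class by age term of amacrine cells against rods was -2.06 ± 0.29 (edgeR adjusted p = 0.000141), where 0.211% of all genes were called for that pair of classes (0.125% for Müller glia and 0% for cones against rods), and it stayed called with all nuclei kept (-1.98) and with the caller's thresholds (-1.99). Amacrine cells had 113 and 87.4 CPM at 5 months and 160 and 191 CPM at 2.5 months, and rods 34.0 and 14.3 CPM at 5 months and 10.3 and 9.11 CPM at 2.5 months. With the filter on low counts neither class was called by itself (-0.84, adjusted p = 0.390, and 1.25, adjusted p = 0.731). Without the second 2.5-month library the term was -1.83 with an adjusted p of 0.0552. In amacrine cells the Slc17a8 cluster, which held most of the UMIs, made up 1.60% and 2.15% of nuclei at 5 months and 2.25% and 2.82% at 2.5 months. In rods Nxph1 was highest in the first 5-month library. The same library was highest in cones (8.67 CPM against 2.29 to 4.13), pigment epithelium (29.6 against 0 to 4.51), Müller glia and fibroblasts, but not in the other classes. In rod bipolar nuclei it had 52.2 CPM against 1.95 to 8.87. Without that library the term was -1.70.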

How the data were processed

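Nuclear RNA of 2 retinas at 5 months and 2 at 2.5 months was analysed from raw UMI counts per gene and barcode, deposited by the authors. Per the submitters' processing notes the build was mm10 and Cell Ranger was used, and per the file headers its version was 4.0.0 at 5 months and 7.1.0 at 2.5 months. Whether intronic reads were counted is not given in the sources used here. Human retina is named in the series title and an eye bank in its design text, while the sample labels and the gene identifiers are of mouse.

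A nucleus needed 300 genes and no more than 5% of UMIs from mitochondrial genes, which 32299 of 32326 barcodes met. Scrublet, run in scanpy 1.11.5, marked 672 and 787 nuclei by its own thresholds at 5 months and 2 and 168 at 2.5 months, so the 6% of highest scores were removed from each library instead. That choice was made after the caller's output was seen and was not in the planned design, and the caller's thresholds and no removal were run as alternatives. Nuclei were clustered (2000 variable genes without the 9 genes and their partner lists, 30 principal components, 15 neighbours, Leiden resolution 1) into 46 clusters. Clusters were named from marker lists by a rule that was revised several times after clusters were seen, and levels of the 9 genes had been displayed before its last version. Left unnamed were 2125 nuclei, among them the cluster led by Vip and Kit, and classes needed 20 nuclei in every library. Cones were 1 cluster and were not split by opsin.

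UMIs were summed per class and library, with levels in CPM, and tested with edgeR 4.0.16 (quasi-likelihood, TMM, filterByExpr, Benjamini-Hochberg over all genes tested). The SE is the log2 fold change over the root of F. Shares of nuclei with a UMI were computed after thinning each nucleus to 500 UMIs, the lowest count of any barcode, so that none was left out. DESeq2 1.42.0, other normalizations, no filter, each library left out and a replicate block were alternatives, and the fits were tested on simulated data. Named were all 9 genes in their highest class, every gene and class called, and the 2 most similar genes of each, of which some are not reported here. Clusters and partner genes described beyond that rule were chosen after their values were seen. The 9 genes, the lists and the motifs were chosen with earlier results of these data known. Each library was treated as 1 animal, as the labels number the donors, and the p-values of the age fits measure the spread between these libraries. In the class map and the class by age term library was a block. Their p-values measure the spread left among class sums of the same libraries, not the spread between animals. Replicate numbers were not taken to pair libraries across ages.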

Additional observations from a re-analysis of the deposited data

Results flagged for a closer look

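The age difference of Nxph1 differed between amacrine cells and rods by -2.06 on the log2 scale (class by age term, edgeR adjusted p = 0.000141). For that pair of classes 0.211% of all genes were called. All amacrine libraries of 5 months were below and all rod libraries of 5 months above those of 2.5 months. Values of the ages were fully apart for 41.1% of all genes in amacrine cells and 37.7% in rods. With the filter on low counts neither class was called by itself (edgeR adjusted p = 0.390 in amacrine cells and 0.731 in rods). The term was tested for amacrine cells, Müller glia and cones against rods. That of Nxph1 in amacrine cells was the only one called among the 9 genes. Rod levels rest on 42 and 32 UMIs at 5 months and 37 and 40 UMIs at 2.5 months. The first 5-month library had 34.0 CPM in rods, against 9.11 to 14.3 CPM in the others.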

How the results depend on the processing

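Of 443 alternative values, 415 kept their direction and side of the threshold or stayed within the spread, 15 moved, 7 lost a call and 6 changed sign. The 415 include the subtype levels with each library left out, which could not move by this rule. Leaving out 1 of 4 libraries always shifts their mean by less than their SD, so these values say nothing on stability. Over 10 classes the 9 genes had 34 to 36 higher and 38 to 41 lower calls when each library was left out, and bipolar cells had 6 rather than 8 higher with all nuclei kept, in the 5-month libraries alone or without the second 2.5-month library, and 7 with RLE normalization, plain library sizes, DESeq2 or no library block. Pigment epithelium had 3 to 7 rather than 4 lower over the alternatives, 7 in the 2.5-month libraries alone. Age calls of the 9 genes numbered 0 higher with all nuclei kept, 0 higher and 2 lower with the caller's own thresholds (added after the data were seen), 6 higher and 1 lower without a filter, and 3 to 6 higher when each library was left out. With the caller's thresholds the 4 called values became -2.03 and -0.48 for Nrxn3 and Nlgn1 in pigment epithelium, -0.93 for Cntnap2 there and -0.98 for Nrxn3 in fibroblasts. Cntnap2 in pigment epithelium became -0.053 with the length trend removed. Nlgn3 in ganglion cells ranged from -0.067 to 0.24 when each library was left out, lowest without 5-month replicate 1. The Nxph1 term of amacrine cells against rods ranged from -2.47 to -1.70 when each library was left out, with 0 to 8 calls over 3 classes, 8 without the second 5-month library and 0 without the second 2.5-month one, where the term was -1.83. Shares of nuclei with a UMI before thinning were 58.8% (Nrxn2, amacrine), 100% (Nrxn3, bipolar, and Nlgn1, Müller glia), 16.0% (Nlgn2, fibroblasts), 36.2% (Nlgn3, ganglion), 99.9% (Cntnap2, ganglion), 85.7% (Cntnap4, pigment epithelium), 36.3% (Cntnap5a, bipolar) and 11.97% (Nxph1, bipolar). These causes were not tested, except that thinning lowers every share by its construction. Over all classes 215 genes were called higher and 38 lower by age, against 52 and 22 with all nuclei kept, 42 and 63 with the caller's thresholds and 1054 and 419 without a filter. Leaving out the first or second 5-month library gave 775 and 230 or 462 and 137, and leaving out the first or second 2.5-month library 555 and 79 or 403 and 350. With the replicate number as a block, 4 calls of the 9 genes were made (Nrxn3 in fibroblasts 2.12, adjusted p = 0.000124 by edgeR) and 491 and 180 over all genes. Same-numbered libraries deviated together with r of -0.05 to 0.17 over classes, so the numbers are not taken to pair libraries. Classes of few nuclei limit the depth most, with 138040 UMIs in the smallest sum.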
